A study of Mus musculus with 6 samples.

Results

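The genes described here are the transcripts of the hypoxia-inducible factor (HIF) system: the HIF subunits *Hif1a*, *Epas1* and *Arnt*, the oxygen sensors *Egln1*, *Egln2*, *Egln3* and *Hif1an*, the ubiquitin ligase component *Vhl*, and the stress targets *Bnip3* and *Ddit4*. They were chosen by name, and all 10 were found among the 16300 genes of the deposited table and passed the filter on low values. Granulosa cells (GCs) are the somatic cells around the oocyte in the ovarian follicle. RNA-seq was performed on 3 libraries of control GCs and 3 libraries of GCs treated with 25 nM dihydrotestosterone (DHT), an androgen that is not converted to estrogen, for 24 h. The GCs of both groups came from wild type C57BL/6J mice aged 8 to 9 weeks and were grown in serum and then starved of serum before the treatment, and each experiment, in the methods of the study, pooled GCs of 5 mice. The labels describe the extraction as from whole ovary and name DHT in the treatment text of every sample, so the samples were grouped by the characteristic that separates control from DHT. The methods describe 3 such pools for each treatment, and whether a control and a DHT library shared a pool is not given in the sources used here.

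HIF is a dimer of an oxygen-labile alpha subunit and the stable beta subunit ARNT. When oxygen is present, the EGLN enzymes hydroxylate prolines of HIF-alpha, VHL then marks it for degradation, and HIF1AN hydroxylates an asparagine that blocks its coactivators. HIF-alpha is therefore known to be controlled largely as a protein, which RNA-seq does not measure, and the questions asked here concern transcripts only: which members of the system differed between control and DHT GCs, and whether the transcripts that HIF is known to induce differed with them.

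*Hif1a*, *Bnip3* and *Egln1* rose in the DHT-treated GCs and no member fell. *Bnip3* was 1.34-fold higher, *Hif1a* 1.23-fold higher and *Egln1* 1.11-fold higher, so none reached a log2 fold change of 1. *Epas1*, *Arnt*, *Egln2*, *Egln3*, *Vhl*, *Hif1an* and *Ddit4* did not pass the test. The 3 of 10 members called as higher stand beside 6.52% of all 16292 tested genes called as higher with an adjusted p no greater than 0.05 (limma, Benjamini-Hochberg over all tested genes), while 4.66% were called as lower, 11.2% in either direction, and 1.31% with an absolute log2 fold change above 1 as well. The median log2 fold change was 0.099 over the 10 members and -0.0052 over all tested genes. Groups without overlap between the 3 control and the 3 DHT libraries were seen for 3 members and for 30.6% of all tested genes. The members were chosen with results of these data known.

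**Figure D1:**
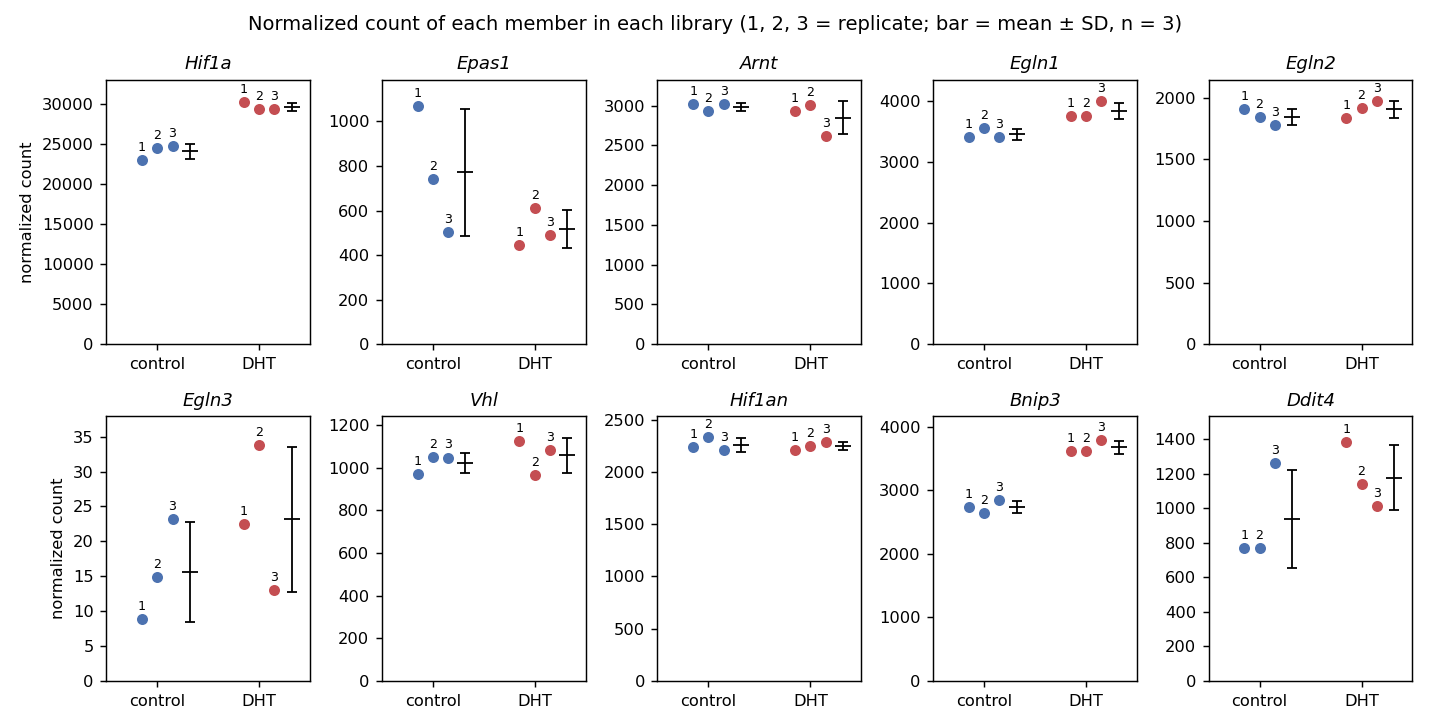
Normalized count (reads divided by the size factor of the library, y axis from 0) of each of the 10 members in each control (blue) and DHT (red) library, with the replicate number above each point and the mean ± SD of 3 libraries as a bar. The groups are apart for Hif1a, Egln1 and Bnip3, while control replicate 1 is the highest library for Epas1 and control replicate 3 lies among the DHT libraries for Ddit4.

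The libraries held between 36111177 and 41928585 reads on genes, and mitochondrial transcripts took 2.53% to 2.72% of them. Markers of GCs were abundant as a sum: 9 of the 10 listed were analysed, and they summed to between 119418 and 152104 normalized counts. Not all were high, with *Fshr* at 135 to 168 and *Amh* at 63.3 to 196. Of the 9 GC markers, *Inha* (log2 fold change -0.61) and *Foxl2* (-0.15) fell and *Hsd17b1* (0.48) rose. The *Foxl2* call (adjusted p = 0.049 in limma) was lost in DESeq2 (0.077) and with a replicate block (0.13). Endothelial markers, of which 5 of 8 were analysed, were low in all libraries and summed to 265 to 308 in control and 226 to 307 in DHT, with 0 called. Stromal markers (6 of 6 analysed, 0 called) summed to 1998 to 2407 in control and 1700 to 2415 in DHT, and those of macrophages and leukocytes (6 of 8 analysed, *Csf1r* called as lower) to 504 to 583 and 385 to 635. The contractile genes *Acta2*, *Myh11* and *Cnn1* rose, and the 4 smooth muscle markers analysed of 5 summed to 4632 to 6802 in control and 8672 to 10301 in DHT. The part of these in the members' differences was not tested. With a replicate block, *Cnn1* (adjusted p = 0.075 in limma) and *Csf1r* (0.065) lost their calls. For theca, 2 of 4 markers were analysed, and for the surface epithelium and the oocyte 5 of 5 each, with 0 called in limma. Both theca markers were lower in DHT without overlap at an unadjusted p under 0.05, and other tools called them, *Aldh1a1* in edgeR (adjusted p = 0.025) and DESeq2 (0.00058) and *Ptch1* in DESeq2 (0.037). The sums of normalized counts came to 137365 to 158722 and 125737 to 128220 for theca, 651 to 1088 and 485 to 1138 for the epithelium, and 236 to 647 and 40.4 to 480 for the oocyte, and *Zp3* was listed at 0 in DHT replicate 2. Nearly all of the theca sum was *Aldh1a1* (134921 to 155949 in control), beside *Ptch1* at 2411 to 2773. The listed theca markers *Cyp17a1* and *Insl3* were not analysed, so the sum does not give a share of theca cells.

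*Bnip3* (ENSMUSG00000078566, GRCm38 chromosome 7, 138890836 to 138909519, minus strand), which encodes a mitochondrial outer membrane protein that recruits the autophagy machinery, is a classical HIF target. Its normalized count was 2735, 2645 and 2838 in control replicates 1, 2 and 3 and 3613, 3622 and 3795 in DHT replicates 1, 2 and 3. Every DHT library was above every control library. The means were 2739 ± 96.9 (SD, n = 3) and 3676 ± 103 (SD, n = 3), a log2 fold change of 0.42 ± 0.042 (SE) with an adjusted p of 0.0004 in limma. The call held in all 16 alternative analyses, with adjusted p-values from 7.6e-12 to 0.017. The annotation places an antisense transcript, *Gm45507*, over 22.3% of the exonic bases of *Bnip3*. The library kit named in the labels does not mark the strand, so reads of the pair cannot be told apart there.

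*Hif1a* (ENSMUSG00000021109, chromosome 12, 73901375 to 73947530, plus strand), the alpha subunit that gives the system its name, was the most abundant member per kilobase of exon. Its normalized counts of 23092, 24509 and 24801 in control replicates 1, 2 and 3 compared with 30265, 29370 and 29451 in DHT replicates 1, 2 and 3. The groups were apart, and the spread within each was small beside the gap between them. The mean rose from 24134 ± 914 (SD, n = 3) to 29695 ± 495 (SD, n = 3), and the log2 fold change was 0.30 ± 0.041 (SE) with an adjusted p of 0.0021 in limma and a range of 6.7e-09 to 0.031 over the 16 alternatives. The study, by quantitative PCR, reported no effect of DHT on *Hif1a* mRNA. The cause of this difference was not tested. Antisense *Gm15283* covers 5.6% and same-strand *Gm49321* 2.51% of the exonic bases of *Hif1a*.

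*Egln1* (ENSMUSG00000031987, chromosome 8, 124908587 to 124949324, minus strand) encodes PHD2, the main prolyl hydroxylase of HIF-alpha in most tissues and itself a HIF target. Control libraries gave 3408, 3565 and 3409 normalized counts and DHT libraries 3760, 3762 and 4000 in replicate order. The groups did not overlap, although the gap between them was small. The log2 fold change of 0.15 ± 0.041 (SE) had an adjusted p of 0.048 in limma, close to the threshold. It passed in 6 of 16 alternatives and was lost in all 6 analyses that left out a library, where the adjusted p ran from 0.058 to 0.16, as well as in DESeq2 (0.053).

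**Figure D2:**
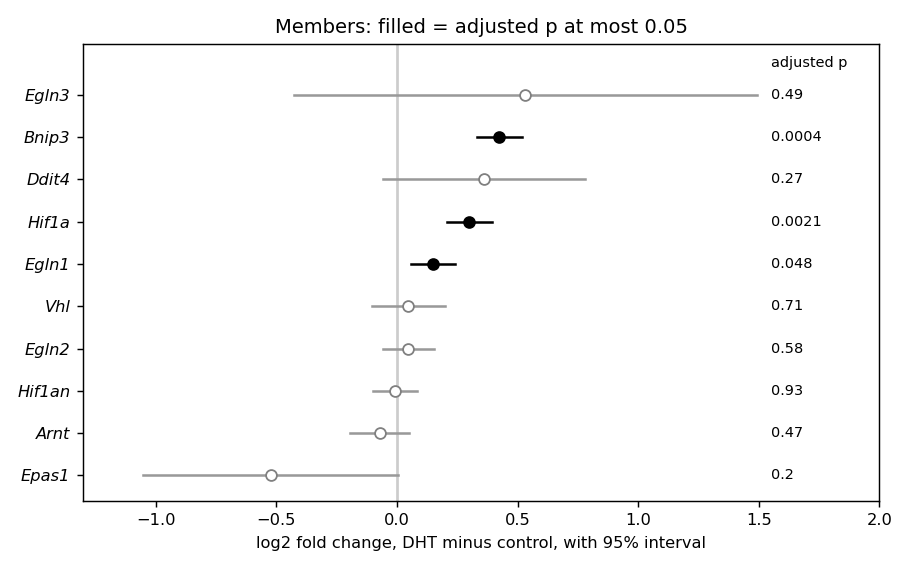
Log2 fold change (x axis, DHT minus control) of each member with its 95% interval from limma, filled where the adjusted p printed at the right was at most 0.05. Of the 10 intervals, those of Bnip3, Hif1a and Egln1 lie wholly above 0, and those of Epas1, Ddit4 and Egln3 are the widest.

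The promoters of the members were searched for the letters that HIF is known to bind, the hypoxia response element core ACGTG or GCGTG on both strands, in the 250 bases before each RefSeq start on GRCm38.p6. A window was found for 9 of the 10 members (*Egln2* had 2 windows) and not for *Epas1*. At least 1 core was present in 8 of these 10 windows, which belong to 7 of the 9 members, against 38.6% of all 32851 windows. The windows of *Vhl* and *Hif1an* held none. The E-box CACGTG overlaps ACGTG on both strands, so each E-box counts as 2 cores. It occurred in the windows of *Bnip3* and *Hif1a* and in 6.02% of all windows. AGAACA, an arm of the androgen and glucocorticoid response element, was found in 0 of the 10 member windows on either strand and in 16.1% of all windows. The member windows ranged from 48% to 86% in GC content. The GC content of all windows was not set beside this, and the part of base composition in these counts was not tested.

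The stretches shown are those of the 3 members that rose and of the stress target *Ddit4*. Each holds no annotated exonic base, is read on the strand of the gene, and has every ACGTG or GCGTG core in capitals, on either strand. The *Hif1a* stretch precedes the RefSeq start and lies inside the annotated gene, which GENCODE begins upstream at 73901375.

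*Bnip3* (chr7:138909520-138909756, minus strand): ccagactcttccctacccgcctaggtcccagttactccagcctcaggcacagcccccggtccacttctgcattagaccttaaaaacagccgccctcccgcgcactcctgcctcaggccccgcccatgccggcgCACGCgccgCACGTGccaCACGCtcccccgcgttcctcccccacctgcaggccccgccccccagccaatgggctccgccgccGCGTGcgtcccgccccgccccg

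*Hif1a* (chr12:73907617-73907866, plus strand): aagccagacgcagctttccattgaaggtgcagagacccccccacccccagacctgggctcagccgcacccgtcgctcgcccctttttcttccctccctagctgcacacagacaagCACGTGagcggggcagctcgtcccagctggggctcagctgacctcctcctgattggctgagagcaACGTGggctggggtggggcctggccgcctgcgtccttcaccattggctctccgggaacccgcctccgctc

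*Egln1* (chr8:124949325-124949504, minus strand): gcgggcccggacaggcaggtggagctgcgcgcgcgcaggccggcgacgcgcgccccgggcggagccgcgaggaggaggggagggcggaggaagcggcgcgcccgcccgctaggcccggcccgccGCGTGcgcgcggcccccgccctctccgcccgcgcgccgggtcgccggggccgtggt

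*Ddit4* (chr10:59951835-59952020, minus strand): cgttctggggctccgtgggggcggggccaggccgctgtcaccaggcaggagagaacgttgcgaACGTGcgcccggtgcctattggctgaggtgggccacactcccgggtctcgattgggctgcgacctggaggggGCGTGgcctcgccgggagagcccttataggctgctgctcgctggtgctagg

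The 250-base window of *Bnip3* held 5 cores, 2 of them from the E-box, and 1.01% of all windows held as many or more. In *Hif1a* there were 3 cores, again with 2 from an E-box (6.58% of windows held as many or more). Each of *Egln1* and *Ddit4* had 2 cores (16.7% of windows held as many or more), and the second of *Egln1* lies within an annotated exon and is not shown. The first window of *Egln2*, whose transcript did not pass the test, held 4 cores (2.58% of windows held as many or more). These matches describe letters and not binding.

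*Epas1* (ENSMUSG00000024140, chromosome 17, 86753700 to 86833410, plus strand) encodes HIF2-alpha, the other main alpha subunit and well known from endothelial cells. In control replicates 1, 2 and 3 it had 1068, 742 and 504 normalized counts, and in DHT replicates 1, 2 and 3 it had 445, 613 and 492. Control replicate 1 was the highest library, and control replicate 3 lay within the DHT range, so the groups overlapped. The log2 fold change of -0.52 ± 0.23 (SE) did not pass (adjusted p = 0.20 in limma). Without control replicate 3 it was -0.80 with an adjusted p of 0.014 in limma, in an analysis that called 13% of all genes, and its adjusted p over all 16 alternatives went from 0.014 to 0.45. The summed oocyte markers were also highest in control replicate 1, at 647, 262 and 236 normalized counts in control and 451, 40.4 and 480 in DHT. The summed stromal, endothelial and macrophage markers were not highest in control replicate 1. Of the 5 endothelial markers, *Tek* alone was (49.5, 32.5 and 38.9 in control and 29.4, 29.5 and 30.5 in DHT). *Pecam1* (44.5, 56.7 and 49.1 in control) and *Cdh5* (28.7, 38.1 and 37.1 in control) were lowest there. Of the 6 macrophage or leukocyte markers, *Csf1r* alone peaked there (115, 92.9 and 98.2 in control and 71.4, 62.2 and 60.9 in DHT). *Ptprc* was lowest there (5.94, 8.36 and 11.1 in control). Of the 6 stromal markers, *Dcn* alone was highest in that library (319, 149 and 104 in control and 66.5, 106 and 77.3 in DHT), while *Col1a1* was lowest there (1063, 1343 and 1479 in control). In bulk samples, fewer cells of a type and less RNA per cell cannot be told apart, and the part of other cell types was not tested.

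*Arnt* (ENSMUSG00000015522, chromosome 3, 95434388 to 95497240), the beta subunit, had 3021, 2929 and 3014 normalized counts in control and 2930, 3005 and 2614 in DHT libraries. Only DHT replicate 3 stood below the rest. Its log2 fold change was -0.07 (95% interval -0.19 to 0.05, adjusted p = 0.47 in limma). *Arnt2*, the paralog of *Arnt* that can also dimerize with HIF-alpha, rose from 4193, 4438 and 4783 to 4914, 5469 and 5204 normalized counts, with a log2 fold change of 0.22 ± 0.057 (SE) and an adjusted p of 0.041 in limma that stayed at or under 0.05 in 10 of 16 alternatives. Per kilobase of exon, *Arnt2* was above *Arnt* in every library, at 1.45, 1.58 and 1.65 times its level in control and 1.75, 1.89 and 2.07 times in DHT. This order depends on the length used, since with the longest transcript the ratios were 0.964, 1.05 and 1.10 in control, below 1 in replicate 1, and 1.16, 1.26 and 1.38 in DHT.

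Among the sensors, *Egln2* (PHD1; ENSMUSG00000058709, chromosome 7, 27158658 to 27166802), *Hif1an* (FIH; ENSMUSG00000036450, chromosome 19, 44562850 to 44576274) and *Vhl* (ENSMUSG00000033933, chromosome 6, 113623959 to 113631633) had control and DHT libraries intermingled. *Egln2* had 1909, 1844 and 1781 normalized counts in control and 1831, 1917 and 1970 in DHT, a log2 fold change of 0.05 with a 95% interval of -0.06 to 0.15. *Hif1an* was the least changed member, at 2237, 2335 and 2205 in control and 2210, 2248 and 2281 in DHT. Its 95% interval of -0.10 to 0.08 on the log2 scale leaves room for a fold of 0.934 to 1.06. *Vhl*, at 969, 1049 and 1048 in control and 1123, 965 and 1084 in DHT, had an interval of -0.10 to 0.20. The adjusted p-values of these genes in limma were 0.58, 0.93 and 0.71.

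*Egln3* (PHD3; ENSMUSG00000035105, chromosome 12, 54178981 to 54203860), the sensor gene best known for strong induction by hypoxia, was close to the floor of the table. Only 9, 16 and 25 reads fell on it in control and 23, 31 and 12 reads in DHT libraries. The normalized counts overlapped (8.9, 14.9 and 23.2 against 22.5, 33.8 and 13.1), and the 95% interval of the log2 fold change, -0.43 to 1.49, includes both no difference and a difference over 2-fold in the positive direction (adjusted p = 0.49 in limma). The log2(value + 1) scale understates the change of so low a gene.

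**Figure D3:**
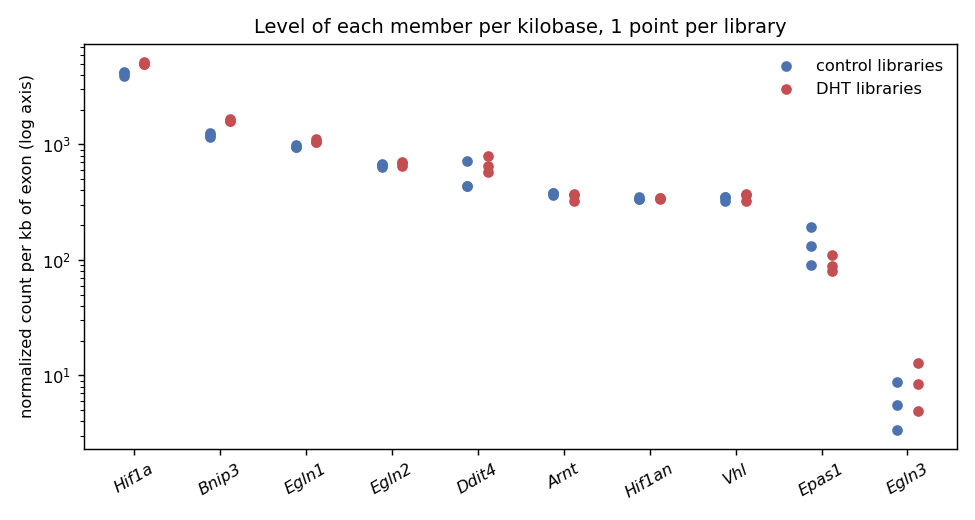
Normalized count per kilobase of exon (log axis) of each member in the 3 control (blue) and 3 DHT (red) libraries, ordered by the control mean. Hif1a lies above all others and Egln3 far below them.

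Levels were compared between genes per kilobase of exonic sequence. In control libraries *Hif1a* stood at 4093 ± 155 (SD, n = 3) normalized counts per kilobase, followed by *Bnip3* at 1209 ± 42.8, *Egln1* at 963 ± 25.1, *Egln2* at 659 ± 22.9, *Ddit4* at 533 ± 162, *Arnt* at 373 ± 6.39, *Hif1an* at 342 ± 10.3, *Vhl* at 341 ± 15.4, *Epas1* at 138 ± 50.6 and *Egln3* at 5.88 ± 2.69 (each SD, n = 3). The control ranges of neighbours in this order were apart except for *Egln2* with *Ddit4* and *Hif1an* with *Vhl*. Part of the order rests on the length used. With the longest transcript in place of all exonic bases, the control mean of *Arnt* was 691 per kilobase. This is above *Ddit4* at 533 and below *Egln2* at 875. The annotation of *Arnt* spreads over 8007 exonic bases and its longest transcript over 4325. *Vhl* (366.0) then also came above *Hif1an* (364.7).

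Within a library, *Epas1* per kilobase was 0.049, 0.032 and 0.021 of *Hif1a* in control and 0.016, 0.022 and 0.018 in DHT replicates 1, 2 and 3. The groups overlapped through control replicate 3 and DHT replicate 2 (two-sided exact permutation test, p = 0.2, where 3 against 3 libraries allow no p below 0.1). The ratio of *Egln1* to *Egln2* was 1.39, 1.51 and 1.49 in control and 1.60, 1.53 and 1.58 in DHT, without overlap (exact p = 0.1, the smallest possible). *Egln3* was at most 0.0121 of *Egln1* in every library. Of the 4 ratios tested, including *Egln3* to *Egln1* and to *Egln2* (both exact p = 0.5), none was below 0.4 after Benjamini-Hochberg adjustment of the permutation p-values.

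Of 18 other genes that build or control HIF, all analysed, *Arnt2* and *Cited4* rose, none fell and 16 did not pass. This is 11.1% called, close to the 11.2% of all tested genes, with a median log2 fold change of 0.026. *Cited4*, which encodes a CBP/p300-binding transactivator, went from 989, 881 and 922 to 1060, 1333 and 1398 normalized counts (log2 fold change 0.43 ± 0.098 SE, adjusted p = 0.024 in limma) and passed in 11 of 16 alternatives. The count of 2 was 0 without DHT replicate 2 or 3, without a trend or with a replicate block, and 1 without control replicate 1 or 2. *Cited2*, a HIF-induced competitor for the same coactivators, was abundant at 28590, 30066 and 30186 in control and 29428, 28650 and 29785 in DHT, with a log2 fold change of -0.02. The VHL ligase scaffold gene *Cul2* (0.04) and the prolyl hydroxylase gene *P4htm* (0.02) had adjusted p-values of 0.53 and 0.95 in limma. *Hif3a*, which encodes the third alpha subunit, was at 4.34 ± 1.79 normalized counts per kilobase in control (SD, n = 3), beside 5.88 ± 2.69 for *Egln3*, with overlapping ranges. It had 16.8, 40.9 and 29.6 normalized counts in control and 42.1, 43.6 and 30.5 in DHT (adjusted p = 0.42 in limma).

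The transcripts that HIF is known to induce did not move in one direction. Of 42 analysed targets outside the members (43 listed), 7 rose, 5 fell and 30 did not pass, so 28.6% were called against 11.2% of all tested genes, and the median log2 fold change was 0.079. Without control replicate 2, DHT replicate 2 or DHT replicate 3, 4 rose. The genes that rose were *Bhlhe40*, *Ndrg1*, *Rora*, *Adm*, *Plod2*, *Pfkfb4* and *Fam162a*, and those that fell were *Hmox1*, *Stc2*, *Car12*, *Gbe1* and *Kdm3a*. With a replicate block 5 rose, and *Pfkfb4* (adjusted p = 0.068 in limma) and *Fam162a* (0.069) lost their calls. *Ndrg1*, a stress-response gene, had 978, 1162 and 982 normalized counts in control and 1604, 1681 and 1893 in DHT, a log2 fold change of 0.73 ± 0.083 (SE) with an adjusted p of 0.0007 in limma. *Rora*, the orphan nuclear receptor gene, rose from 1239, 1058 and 1182 to 1737, 1972 and 1933 (0.70 ± 0.071 SE, adjusted p = 0.0004 in limma).

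*Bhlhe40* (DEC1), a circadian repressor gene, had the largest positive log2 fold change of the list in limma, though not the largest change of group means. It went from 2064, 2513 and 3847 to 4734, 4668 and 4561 normalized counts. Control replicate 3 lay between the other controls and the DHT-treated GCs, and its log2 fold change of 0.78 ± 0.18 (SE, adjusted p = 0.025 in limma) became 1.03 without it. The call was lost without control replicate 2, DHT replicate 1, DHT replicate 2 or DHT replicate 3 (adjusted p = 0.085, 0.069, 0.080 and 0.086 in limma), in DESeq2 (0.059) and without a trend (0.13), and passed in 10 of 16 alternatives. *Hmox1*, the heme oxygenase gene, is induced by HIF and by NRF2 and had the largest fall. It went from 11991, 9455 and 11208 to 4652, 4655 and 4697, which is 0.431-fold (log2 fold change -1.21 ± 0.075 SE). *Stc2*, encoding stanniocalcin 2, went from 1354, 1375 and 1251 to 844, 914 and 840 (log2 fold change -0.61), and *Car12*, encoding a carbonic anhydrase, from 335, 327 and 318 to 264, 226 and 222 (-0.46). The adjusted p-value of *Car12* was 0.014 in limma and 0.067 and 0.066 without DHT replicates 2 and 3. Genes on the other strand cover exonic bases of 5 called targets, 19.8% for *Fam162a*, 6.42% for *Plod2*, 6.35% and 2.08% for *Ndrg1*, 2.51% for *Bhlhe40* and 0.627% for *Rora*, where reads cannot be assigned to a strand.

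**Figure D4:**
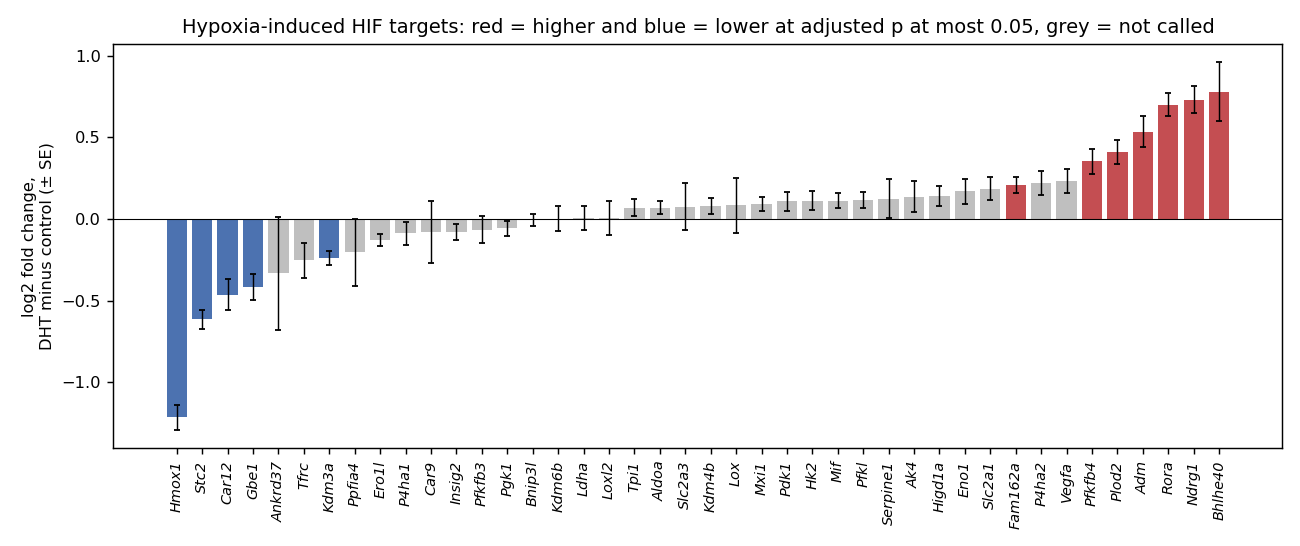
Log2 fold change (y axis, DHT minus control, bars from 0 with the SE from limma) of the 42 analysed hypoxia-induced HIF targets, red where higher, blue where lower and grey where not called (threshold of 0.05 on the adjusted p). Called genes lie at both ends, and Kdm6b, Bnip3l and Ldha are near 0.

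Several well known targets did not pass. *Vegfa*, the angiogenic factor gene, had 4156, 3699 and 4627 normalized counts in control and 5051, 4788 and 4776 in DHT, apart by a small gap, with a log2 fold change of 0.23 ± 0.072 (SE, adjusted p = 0.074 in limma, 0.0068 to 0.21 over the alternatives). The glucose transporter gene *Slc2a1* (0.19, adjusted p = 0.13 in limma) and the pyruvate dehydrogenase kinase gene *Pdk1* (0.11, adjusted p = 0.27 in limma) had smaller positive values. *Kdm6b* (JMJD3), the histone demethylase gene that the study places downstream of HIF1-alpha, had 4997, 4943 and 6031 normalized counts in control and 5561, 5380 and 5002 in DHT. The groups overlapped throughout, and the log2 fold change was 0.00 ± 0.076 (SE, adjusted p = 0.99 in limma), with a sign that turned with the scaling and the library left out. Its fold lay between 0.967 and 1.07 in all 16 alternatives, and an antisense gene covers 4.11% of its exonic bases. By quantitative PCR, the study reported a rise of *Kdm6b* mRNA at the same dose and time of DHT. It also reported more JMJD3 protein and more HIF1-alpha bound at a response element of the promoter. Why the RNA-seq value differed from that mRNA assay was not tested.

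*Bnip3* and its paralog *Bnip3l* (NIX), both mitophagy receptor genes and both HIF targets, did not share a call. *Bnip3l* had 5157, 5097 and 4996 normalized counts in control and 4907, 5103 and 5206 in DHT, a log2 fold change of 0.00 ± 0.037 (SE, adjusted p = 0.96 in limma). The level of *Bnip3* per kilobase relative to *Bnip3l* was 0.904, 0.884 and 0.968 in control and 1.25, 1.21 and 1.24 in DHT. This ratio was chosen after its values were seen and was not tested. In the mitophagy list, 19 of 20 genes were analysed, *Map1lc3a* (log2 fold change 0.22, adjusted p = 0.022 in limma) and *Bcl2l13* (0.15, adjusted p = 0.043 in limma) rose, none fell and 17 did not pass, which is 10.5% called beside 11.2% of all tested genes, with a median of -0.014. *Map1lc3a* encodes an LC3 protein of the autophagosome and *Bcl2l13* another mitophagy receptor, with 6.91% of its exonic bases covered by *Bid* on the other strand. Their adjusted p-values passed in 11 and 8 of the 16 alternatives, and the 2 calls were 0 without control replicate 1 or 2 or DHT replicate 2 or 3 and 1 without control replicate 3.

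*Ddit4* (REDD1; ENSMUSG00000020108, chromosome 10, 59949669 to 59951834, minus strand) encodes an inhibitor of mTORC1 that is induced by hypoxia, glucocorticoids and amino acid stress. It had 772, 770 and 1263 normalized counts in control replicates 1, 2 and 3 and 1382, 1140 and 1012 in DHT replicates 1, 2 and 3. Control replicate 3 stood 1.64-fold above the other control libraries and above 2 of the DHT libraries, so the groups overlapped. The log2 fold change of 0.36 ± 0.19 (SE) did not pass (adjusted p = 0.27 in limma). Without control replicate 3 it was 0.60, or 1.51-fold, with an adjusted p of 0.0084 in limma, and it passed in this 1 of 16 alternatives (0.0084 to 0.57).

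The library that set *Ddit4* apart did so for other stress genes. Of 19 analysed genes that glucocorticoids or stress are known to induce together with *Ddit4* (20 listed), 15 had control replicate 3 as the highest control library, against 35.2% of all tested genes. In 7 of the 19 it exceeded the mean of the other controls by more than 1.2-fold, against 11.5% of all tested genes. *Per1*, a clock gene, had 1235, 1319 and 2281 normalized counts in control and 2441, 2224 and 2008 in DHT. The pseudokinase gene *Trib3* (173, 150 and 253 against 244, 272 and 244) and *Ddit3*, which encodes CHOP (609, 597 and 919 against 855, 875 and 822), had the same shape. Control replicate 3 had the most reads of the 6 libraries (41928585) and a mitochondrial share of 2.65%, and the part of depth was not tested.

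**Figure D5:**
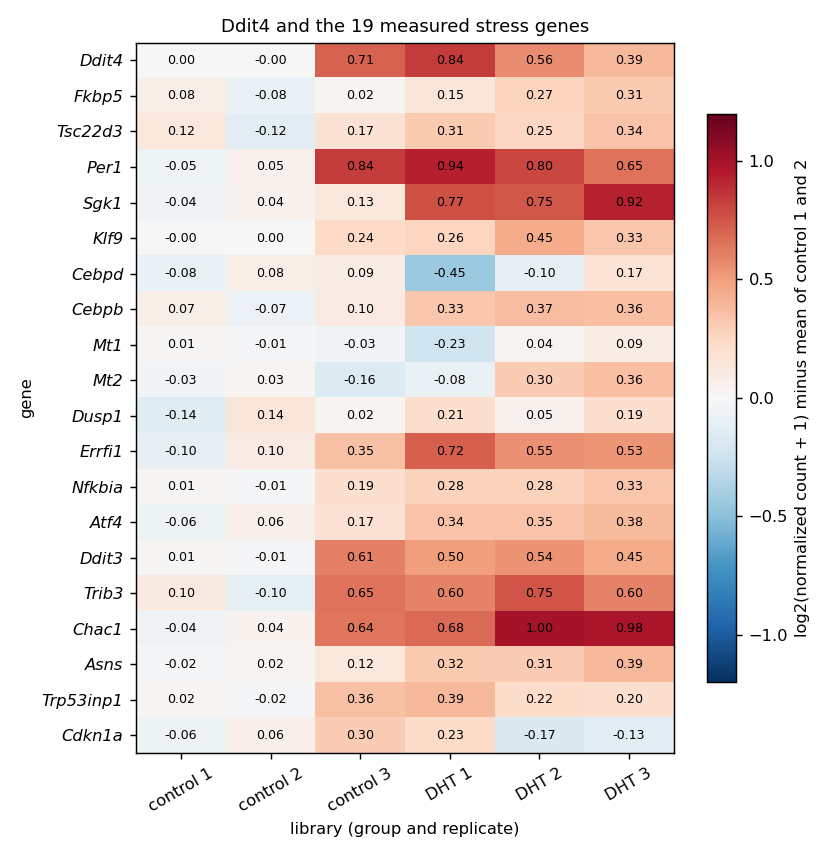
Log2(normalized count + 1) of Ddit4 and the 19 analysed stress genes (rows) in each library (columns), minus the mean of control replicates 1 and 2 of the same gene, as the colour and number of each cell. Control replicate 3 is near the DHT libraries for Ddit4, Per1, Ddit3 and Trib3, but near the other controls for Sgk1 and Fkbp5.

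In this stress list 8 genes rose, none fell and 11 did not pass. This is 42.1% called beside 11.2% of all tested genes, and the median log2 fold change was 0.27. The count of higher genes was 14 without control replicate 3, 4 without control replicate 2, DHT replicate 2 or DHT replicate 3, 5 with a replicate block, and 3 without a trend. *Sgk1*, a serum- and glucocorticoid-induced kinase gene, rose from 14950, 15784 and 16798 to 26137, 25785 and 29070 normalized counts, with control replicate 3 close to the other controls (log2 fold change 0.77 ± 0.059 SE, adjusted p = 0.0001 in limma). *Chac1*, a glutathione-degrading enzyme gene downstream of ATF4, rose from 201, 213 and 323 to 331, 415 and 409 (0.67 ± 0.18 SE, adjusted p = 0.041 in limma), and *Errfi1*, an inhibitor of EGF receptor signalling, from 840, 962 and 1148 to 1478, 1316 and 1295 (0.48 ± 0.10 SE, adjusted p = 0.020 in limma). These calls passed in 11 and 10 of 16 alternatives, with adjusted p-values of up to 0.15 and 0.10, and were lost without control replicate 2 or DHT replicate 2 or 3, for *Chac1* also without control replicate 1 and for *Errfi1* without DHT replicate 1. Both were lost without a trend, and *Errfi1* with a replicate block (adjusted p = 0.063 in limma). *Atf4*, *Asns*, *Cebpb*, *Fkbp5* and *Nfkbia* were the others that rose, by 0.30, 0.29, 0.32, 0.23 and 0.23 on the log2 scale. *Asns* and *Cebpb* were called in all 16 alternatives and *Atf4* in 15. *Fkbp5* (adjusted p = 0.028 in limma) was called in 11, and not without control replicate 2, DHT replicate 2 or 3, or a trend, nor with a replicate block (0.087). *Nfkbia* (adjusted p = 0.049 in limma) was called in 8, and with a library left out only without control replicate 3. *Tmem189* on the other strand covers 20.7% of the exonic bases of *Cebpb*.

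*Ddit4l* (REDD2), the paralog of *Ddit4* that also restrains mTORC1, fell from 1833, 1401 and 1507 to 1008, 1096 and 930 normalized counts. All DHT libraries were below all control libraries, with a log2 fold change of -0.64 ± 0.099 (SE, adjusted p = 0.0038 in limma). Per kilobase, *Ddit4* stood at 0.699, 0.913 and 1.39 times *Ddit4l* in control and at 2.28, 1.73 and 1.81 times in DHT, a ratio that was chosen after its values were seen and not tested. Of 24 analysed genes of the mTORC1 list (26 listed), *Depdc5* rose, *Ddit4l* fell and 22 did not pass, which is 8.33% called beside 11.2% of all tested genes, and the median was 0.00058. Without control replicate 3, 4 rose, and without control replicate 2, 2 fell. *Depdc5*, a component of the GATOR1 brake on amino acid signalling to mTORC1, had 1753, 1912 and 1799 normalized counts in control and 2218, 2300 and 2206 in DHT (log2 fold change 0.30 ± 0.046 SE, adjusted p = 0.0035 in limma). *Txnip*, encoding a partner of DDIT4, had a log2 fold change of -0.15 (adjusted p = 0.48 in limma).

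ARNT also pairs with the aryl hydrocarbon receptor and other proteins of the bHLH-PAS family. Of 16 analysed genes of that family and its targets (20 listed), 4 rose, 2 fell and 10 did not pass, which is 37.5% called beside 11.2% of all tested genes, with a median log2 fold change of 0.026. The count of higher genes was 0 without a trend, 1 without DHT replicate 2 and 2 without control replicate 2 or DHT replicate 3, and in each of these analyses 1 gene was lower. With a replicate block 1 gene was higher and 2 were lower. The receptor gene *Ahr* fell from 3784, 3747 and 4119 to 3450, 2677 and 2673 normalized counts (log2 fold change -0.41 ± 0.093 SE, adjusted p = 0.022 in limma). The call of *Ahr* was lost in 4 of 16 alternatives, without DHT replicate 2 (adjusted p = 0.087 in limma), DHT replicate 3 (0.095), control replicate 2 (0.0503) or a trend (0.12). Known targets of the receptor did not move together. *Nqo1*, a quinone reductase gene that NRF2 also induces, fell from 1207, 655 and 901 to 237, 257 and 230 (log2 fold change -1.89), whereas *Cyp1b1*, a cytochrome P450 gene, rose from 6786, 5674 and 7569 to 9032, 8807 and 9299 (0.45). The *Cyp1b1* call was lost without DHT replicate 3 or a trend. The clock gene *Arntl* rose by 0.38 on the log2 scale (adjusted p = 0.022 in limma) and was called in 12 of 16 alternatives, not without control replicate 2, DHT replicate 2 or a trend, nor with a replicate block (0.083). *Npas4*, an activity-dependent factor gene, rose from 2.97, 1.86 and 7.41 to 16.6, 31.6 and 17.4 normalized counts, a fold of 4.81 with a 95% interval of 2.30 to 10.04, and was called in 11 of 13 alternatives. Its reads numbered 3, 2 and 8 in control, and its log2 fold change moved from 1.30 with a pseudocount of 8 to 2.75 under quantile normalization.

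The genes whose profile over the 6 libraries lay nearest to a member were sought among 11632 other genes with a mean of at least 100, by the Euclidean distance of log2 values centred on each gene's mean. For *Hif1a* they were *Stau1* (distance 0.029), *Tmem41b* (0.042) and *Nampt* (0.043), beside a length of 0.38 for the profile of *Hif1a* itself. For *Bnip3* they were *Tmem135* (0.062), *Apobr* (0.077) and *Nrbp2* (0.079), beside 0.53. *Ddit4* was followed at a greater distance by *Stc1* (0.11), *Irf2bp2* (0.21) and *Grasp* (0.23), beside 0.80. *Stc1* had 415, 427 and 662 normalized counts in control and 718, 636 and 570 in DHT, with the same high control replicate 3.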

How the data were processed

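Normalized counts of 16300 genes in 6 libraries were analysed. Per the labels and the study's methods, the authors trimmed reads with Trimmomatic 0.36, aligned them to GRCm38 by STAR 2.5.2b and counted exonic reads through featureCounts of Subread 1.5.2. The signal deposited is the count of a gene divided by a size factor. All values of each library were whole multiples (tolerance 1e-06) of the value of 1 read, so the whole reads were recovered for 100% of values. The p-values, adjusted p-values and log2 fold changes that the authors deposited were not used, and neither was a second table of a subset of the same genes.

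Groups came from the label that names control or DHT. The values were tested as log2(value + 1) in limma 3.58.1 (R 4.3.3) with an intensity trend and no block, for genes with a mean of at least 10, with Benjamini-Hochberg adjustment over the 16292 genes tested and calls at an adjusted p of at most 0.05. Alternatives were pseudocounts of 0.5 and 8, no filter, a mean of at least 50, TMM scaling, quantile normalization, no trend, a replicate block, edgeR 4.0.16 and DESeq2 1.42.0 on the recovered reads, and each library left out. The main limma fit, the replicate block, edgeR and DESeq2 were tested on simulated data, and the other alternatives were not. Each group had 3 libraries, with 36111177 to 41928585 reads per library.

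Gene positions, lengths and overlaps were taken from GENCODE M21 (GRCm38), and promoter sequences from RefSeq (GRCm38.p6). Members and gene lists were chosen with earlier results of these data known. Named genes were the members, up to 3 called genes with the largest change in each direction per list, 12 fixed names (*Arnt2*, *Hif3a*, *P4htm*, *Cul2*, *Cited2*, *Kdm6b*, *Vegfa*, *Slc2a1*, *Pdk1*, *Bnip3l*, *Ddit4l*, *Txnip*) and the 3 nearest profiles of *Hif1a*, *Bnip3* and *Ddit4*. Cell type markers, the remaining called targets and stress genes, and *Per1*, *Trib3*, *Ddit3* and *Ldha* were named after their values were seen.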

Additional observations from a re-analysis of the deposited data

How the results depend on the processing

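*Hif1a* and *Bnip3* were called in all 16 alternatives, and *Arnt*, *Egln2*, *Egln3*, *Vhl* and *Hif1an* in none of those run. *Egln1* lost its call under quantile normalization (log2 fold change 0.14), no trend (0.15), the replicate block (0.15, adjusted p = 0.14) and DESeq2 (0.15), and with any library left out (0.12 to 0.17). Leaving out a library gave -0.80 to -0.26 for *Epas1* and 0.24 to 0.60 for *Ddit4*, each called only without control replicate 3. Over these 6 analyses, 2 to 3 members were higher and 0 to 1 lower. Genes called as higher numbered 586 to 1240, lower 351 to 863, and past a log2 fold change of 1 140 to 285. The lowest counts of higher genes were without DHT replicate 2 or 3, and the highest without control replicate 3.

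Samples with the same replicate number did not deviate together (correlations 0.0058, 0.067 and -0.24), so the numbers were not taken as pairs. Samples with different numbers had correlations of -0.19 to 0.23. With 3 libraries per group, each centred on its group mean, these values cannot show whether a pool was shared. The replicate block called 633 genes as higher and 357 as lower, against 1063 and 760, and 0 HIF partners, 5 HIF targets, 1 mitophagy gene, 1 ARNT family gene and 5 stress genes as higher. It changed the call of no other member. On the recovered reads, edgeR called 1068 genes as higher and 744 as lower, and DESeq2 1122 and 805. Without an intensity trend 501 genes were higher and 303 lower. In that analysis, 0 HIF partners, 4 HIF targets, 0 mitophagy genes, 0 ARNT family genes and 3 stress genes were higher, and 3 HIF targets, 0 mTORC1 genes and 1 ARNT family gene were lower. Requiring a mean of at least 50 left 131 genes past a log2 fold change of 1, against 213, with fewer genes tested. Quantile normalization gave 1 HIF partner lower, 2 mTORC1 genes lower, and 1 mitophagy gene higher and 2 lower. DESeq2 called 2 mTORC1 genes higher and 2 lower, and 1 mitophagy gene lower. Except where the construction of an alternative shows it, the cause was not tested.

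With a library left out, the lists ranged from 0 to 2 HIF partners higher, 4 to 9 HIF targets higher, 1 to 4 mTORC1 genes higher and 1 to 2 lower, 0 to 2 mitophagy genes higher and 0 to 1 lower, 1 to 4 ARNT family genes higher and 1 to 2 lower, and 4 to 14 stress genes higher.

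Some uncalled values near 0 turned sign. *Cited2* went to 0.0038 and *Kdm6b* to -0.013 under quantile normalization, and *Kdm6b* to -0.00056 in edgeR and -0.0025 in DESeq2. With a library left out, *Hif1an* ranged from -0.025 to 0.016, *P4htm* from -0.069 to 0.079, *Cited2* from -0.041 to 0.000047, *Kdm6b* from -0.048 to 0.095, *Bnip3l* from -0.022 to 0.020, *Cebpd* from -0.30 to 0.0055 and *Mt1* from -0.089 to 0.072. Few reads fell on *Egln3* and *Hif3a*, and whether depth or the spread between libraries sets their wide intervals was not tested. An alternative filter at a mean of 50 left *Egln3* and *Hif3a* untested.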
